A study of Mus musculus with 192 samples.

Results

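Cytosolic nucleic acid sensors are the proteins with which a cell detects viral or misplaced RNA and DNA inside itself. The transcripts of 7 of them were followed, Ddx58, Ifih1, Dhx58, Mb21d1, Tmem173, Zbp1 and Eif2ak2, chosen by name from 23481 genes in the count table. They were chosen with earlier results of these data known, so their shares called are not an independent test against all genes. Each of the 7 passed the filter on low counts that left 4720 genes to test. RNA sequencing was done on dendritic cells, which present antigens to T cells, cultured from bone marrow of female C57BL/6J mice (Mus musculus) aged 6 to 8 weeks with the growth factor GM-CSF at 15 ng per mL. Cells were plated at 100000 per well and exposed to ligands of pattern recognition receptors for 6 hours. The libraries form 64 groups of 3: an untreated group labelled Ctrl, 7 groups with a single ligand, 21 with a pair and 35 with a triplet, so that each pair and each triplet of the 7 ligands is present. Ligand names are those of the labels: SeV, cGAMP (a cyclic dinucleotide), LPS (lipopolysaccharide), PAM, HMW, CpGB and Zymosan (a depleted zymosan). Doses are not used here. All groups share the same strain, sex, culture and time, and the labels do not say whether the 3 libraries of a group came from separate cultures or animals, so p-values measure the spread between these libraries, which may be technical.

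Ddx58 encodes RIG-I and Ifih1 encodes MDA5, helicases that bind double-stranded RNA in the cytosol and signal through the mitochondrial adaptor MAVS, and Dhx58 encodes LGP2, a relative of both that lacks their signalling domain and modulates them. Mb21d1 encodes cGAS, which binds cytosolic DNA and makes a cyclic dinucleotide, and Tmem173 encodes STING, the receptor of that dinucleotide. Zbp1 encodes a sensor of nucleic acids in the Z conformation that can trigger inflammatory cell death, and Eif2ak2 encodes PKR, a kinase that halts translation when it binds double-stranded RNA. The routes through MAVS and STING lead to type I interferon, which acts back on the same cell and its neighbours. It does so through a surface receptor and transcription factors that include STAT2 and IRF9. Many sensor genes are themselves known as interferon-stimulated genes in myeloid cells.

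The DNA letters through which such factors act can be read in the reference promoters. RefSeq promoters of GRCm38.p6, 250 bases before to 50 bases after a start site, were matched for 4 of the 7 genes: Ddx58, Ifih1, Eif2ak2 and Mb21d1 (there named Cgas). They were searched on both strands for the core of the interferon-stimulated response element (GAAA, 2 free bases and GAAA), which 3.44% of 32851 promoters in that table hold, for the gamma-activated site core, TTCNNNGAA, which 8.3% hold, and for an NF-kB core (GGGA, 3 free bases and CCC), which 5.55% hold. The first core was found in Ddx58, Ifih1 and Eif2ak2, the second in Eif2ak2, and the third in none of the 4. No match was found in Mb21d1, and Dhx58, Zbp1 and Tmem173 were not searched. The sites are shown so that the letters can be read beside the values, and no relation between a core and the values was tested. Each is a window of 30 bases on the strand of the gene, 5′ to 3′, with the match in capitals, and a match is a description of letters, not of binding. The match in Ddx58 (chr4:40239804-40239833) lies on the opposite strand and begins at base 3 counted from the start site, that in Ifih1 (chr2:62646206-62646235) at base 33, and that in Eif2ak2 (chr17:78882535-78882564) at base 19. The gamma-activated site core of Eif2ak2 (chr17:78882731-78882760) begins at base -178.
Ddx58, response element core: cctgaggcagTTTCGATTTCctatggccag
Ifih1, response element core: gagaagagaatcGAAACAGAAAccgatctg
Eif2ak2, response element core: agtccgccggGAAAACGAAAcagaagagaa
Eif2ak2, gamma-activated site core: ctgcagagctTTCCCAGAAtggaagccagg

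In the same build, Ddx58 spans chr4:40203777-40239825, Ifih1 chr2:62595618-62646255, Dhx58 chr11:100694884-100704271, Mb21d1 chr9:78430518-78443237, Zbp1 chr2:173206612-173218959 and Eif2ak2 chr17:78850504-78882572 by RefSeq, and the position of Tmem173 is not given here. Library totals ran from 46564 to 610234 UMI counts (molecules counted once per unique identifier), with a median of 171616. The Ctrl libraries were the shallowest group, with 73431 ± 14389 counts (SD, n = 3), and every comparison with Ctrl and every interaction shares these 3 libraries. In Ctrl the 3 libraries together held 15 counts of Ddx58, 24 of Ifih1, 9 of Dhx58, 3 of Mb21d1, 7 of Tmem173, 5 of Zbp1 and 9 of Eif2ak2, so levels in untreated cells are the least precise values here. Levels are given as CPM (counts scaled to the same library total, over the tested genes and with TMM scaling), which do not allow levels of different genes to be compared because they are not per length. The labelled cell type was checked against 9 markers of dendritic cells and macrophages, 8 of them tested, whose summed level was 10660 to 15715 CPM over all libraries, although Flt3 had a median of 0. Neutrophil markers summed to 361 to 1074 CPM, markers of plasmacytoid dendritic cells to 9.47 to 294 CPM (almost all Tcf4), those of B cells to at most 34.6, of T and NK cells to at most 8.50, of mast cells to at most 34.4 and of stroma to at most 12.6 CPM. The dendritic cell and macrophage markers summed to 14670 to 15683 CPM in Ctrl, above their median of 13368 over all libraries, and the plasmacytoid markers to 38.3 to 57.3 CPM in Ctrl, below their median of 133; their part in the results was not tested. The 4 erythroid markers and Cd3e had no count in any library. No 2 libraries of a group were identical or alike within sampling noise.

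The first question was what each ligand alone did to the sensor transcripts. LPS, SeV and cGAMP each raised Ddx58, Ifih1, Dhx58, Mb21d1, Zbp1 and Eif2ak2, CpGB raised 5 of the 7 (all but Mb21d1 and Tmem173), PAM raised Ddx58 and Zbp1, and HMW raised Ddx58. Zymosan alone raised none by edgeR or DESeq2 (Ddx58 and Zbp1 had an unadjusted p under 0.05, Ddx58 just under the fold threshold), and no single ligand lowered any by either tool or by an unadjusted p. A call against Ctrl needed a log2 fold change of 1 or more in size and an adjusted p under 0.05 in edgeR's quasi-likelihood test, adjusted by Benjamini-Hochberg over the 4720 genes of a contrast. Among all tested genes the share called higher was 8.01% with PAM, 14.6% with LPS, 0.953% with HMW, 4.43% with Zymosan, 10.5% with SeV, 11.7% with cGAMP and 10.8% with CpGB, and the share called lower was 5.89%, 9.60%, 0.0212%, 1.82%, 5.13%, 5.91% and 6.27% in that order. The median log2 fold change of the 7 sensors was 2.68 with LPS, 2.84 with SeV, 2.54 with cGAMP and 2.33 with CpGB, against medians over all genes of -0.06, -0.08, -0.09 and -0.03. With PAM, HMW and Zymosan it was 0.65, 1.11 and 0.67, against 0.03, 0.03 and 0.02. The counts with the weaker ligands rested on single libraries: with PAM 1 sensor was called without Ctrl replicate 1, Ctrl replicate 3 or PAM replicate 3 and 0 without the first libraries of all groups or with counts thinned to equal totals, HMW had 0 called without HMW replicate 2, without the second libraries of all groups or with thinned counts and 2 without HMW replicate 1 or Ctrl replicate 2, and Zymosan had 2 without Zymosan replicate 1 and 1 without Ctrl replicate 2. In bulk RNA, fewer cells expressing a gene and less RNA per cell cannot be told apart.

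**Figure D1:**
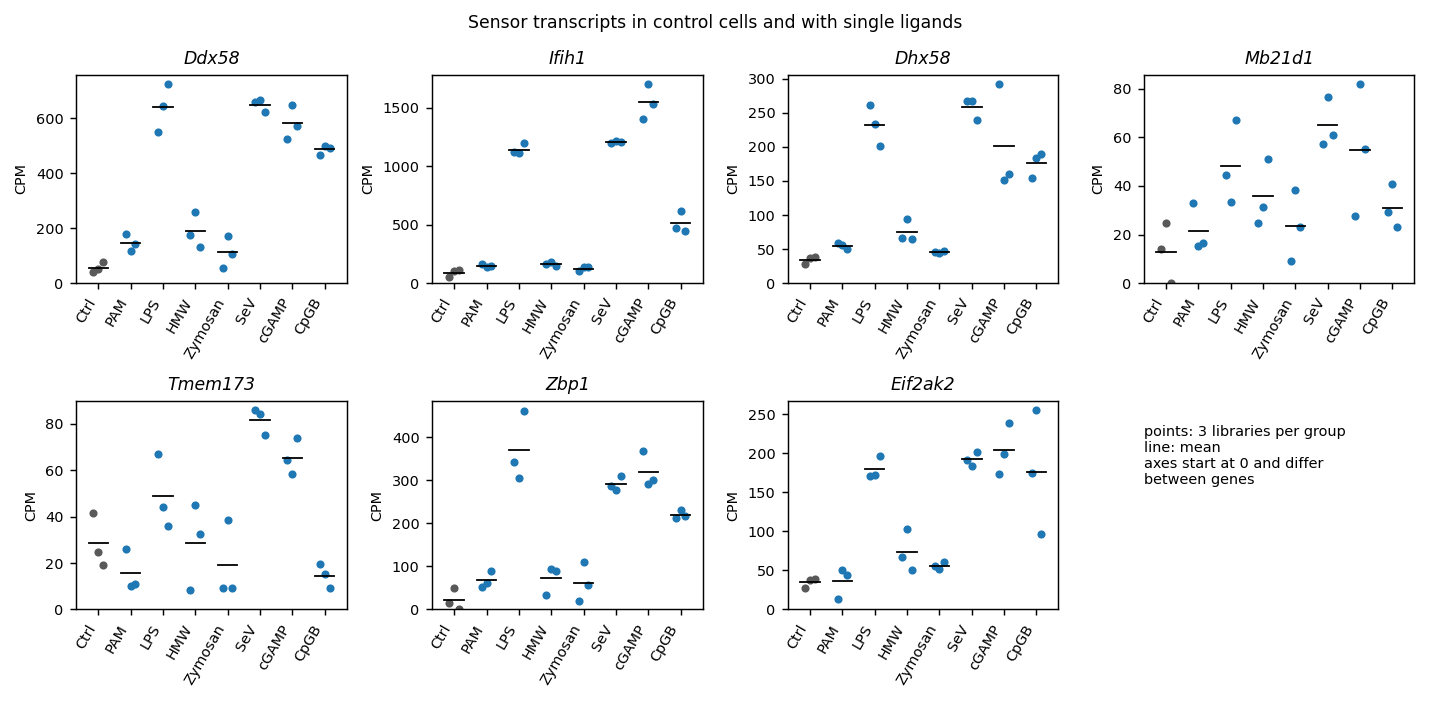
CPM of each sensor transcript in the 3 libraries (points) of Ctrl and of each single ligand, with the group mean as a line; vertical axes start at 0 and differ between genes. The LPS, SeV, cGAMP and CpGB libraries lie above the Ctrl libraries for Ddx58, Ifih1, Dhx58, Zbp1 and Eif2ak2, whereas Tmem173 is highest with SeV and low with PAM and CpGB.

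Among the RNA helicases, Ddx58 stood at 41.6, 49.9 and 76.8 CPM in the Ctrl libraries, at 551, 643 and 725 with LPS, at 624, 659 and 667 with SeV, at 523, 571 and 649 with cGAMP and at 466, 493 and 500 with CpGB. These 4 groups lay far above Ctrl with no overlap. The log2 fold changes were 3.45 ± 0.29 (SE) with LPS and with SeV, 3.31 ± 0.30 with cGAMP and 3.05 ± 0.30 with CpGB, with edgeR adjusted p between 8.40e-24 and 7.39e-18. Smaller rises passed the rule with HMW, at 130, 175 and 260 CPM (log2 1.70 ± 0.36, edgeR adjusted p = 7.55e-04, or 0.0987 without HMW replicate 2), and with PAM, at 116, 144 and 177 CPM (1.29 ± 0.38, 0.00709). The call with PAM was lost without the first libraries of all groups (edgeR adjusted p = 0.108) and with thinned counts (edgeR adjusted p = 0.0546). With Zymosan the libraries (55.2, 107 and 173 CPM) overlapped Ctrl, and the change of 0.99 ± 0.40 did not pass (edgeR adjusted p = 0.110).

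Ifih1, which encodes the MDA5 sensor of long double-stranded RNA, was at 55.4, 99.8 and 115 CPM in Ctrl, at 1403, 1534 and 1700 with cGAMP, at 1195, 1210 and 1211 with SeV, at 1108, 1117 and 1195 with LPS and at 443, 475 and 613 with CpGB. The cGAMP libraries were the highest and the CpGB libraries lay between Ctrl and the other 3 groups without overlap. The log2 fold changes were 4.05 ± 0.25 with cGAMP, 3.68 ± 0.26 with SeV, 3.60 ± 0.26 with LPS and 2.45 ± 0.29 with CpGB (edgeR adjusted p between 3.39e-36 and 3.07e-13). HMW (149, 166 and 179 CPM) and PAM (136, 144 and 164 CPM) lay just above Ctrl in each library but did not pass, with log2 differences of 0.81 ± 0.35 (edgeR adjusted p = 0.409) and 0.65 ± 0.36 (0.238).

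Dhx58, the LGP2 gene, stood at 27.7, 37.4 and 38.4 CPM in Ctrl and rose to 239, 268 and 268 with SeV, 201, 233 and 261 with LPS, 152, 160 and 293 with cGAMP and 155, 184 and 189 with CpGB. Each of these libraries was above every Ctrl library. The log2 fold changes were 2.84 ± 0.42 with SeV, 2.68 ± 0.42 with LPS, 2.43 ± 0.44 with cGAMP and 2.33 ± 0.44 with CpGB (edgeR adjusted p between 4.00e-09 and 4.95e-06). With HMW the level was 65.1, 66.5 and 94.2 CPM, and the difference of 1.11 ± 0.52 did not pass (edgeR adjusted p = 0.462).

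The genes of the DNA route had few counts. Mb21d1, the cGAS gene, was at 0, 13.9 and 24.9 CPM in Ctrl, which is 3 counts in all. It was at 57.3, 61.0 and 76.6 with SeV, at 27.5, 55.2 and 81.8 with cGAMP and at 33.3, 44.7 and 67.1 with LPS, and these libraries did not overlap Ctrl. The ratio of summed counts, scaled for library size, was 5.53 with SeV (95% exact counting interval 1.71 to 28.4, edgeR adjusted p = 0.00635), 5.02 with cGAMP (1.54 to 25.9, 0.0119) and 4.29 with LPS (1.32 to 22.1, 0.0212), where intervals cover counting error only. With CpGB the ratio was 2.65 (0.759 to 14.2) and did not pass (edgeR adjusted p = 0.244). The calls of Mb21d1 were lost by DESeq2 (adjusted p = 0.0530 with SeV, 0.0715 with cGAMP and 0.0961 with LPS) and, by edgeR, without Ctrl replicate 3 (adjusted p = 0.106, 0.146 and 0.201), without cGAMP replicate 2 (0.0944 with cGAMP) and without LPS replicate 3 (0.113 with LPS).

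Tmem173, the STING gene, was called with no single ligand. It stood at 19.2, 24.9 and 41.6 CPM in Ctrl (7 counts in all), at 75.0, 84.3 and 86.0 with SeV and at 58.4, 64.2 and 73.7 with cGAMP, which put both groups above Ctrl without overlap. The log2 differences were 1.53 ± 0.63 with SeV (edgeR adjusted p = 0.0725) and 1.24 ± 0.65 with cGAMP (0.173). With CpGB it was at 9.22, 15.3 and 19.4 CPM and with PAM at 10.1, 11.1 and 26.2, both lower on average and overlapping Ctrl, with log2 differences of -0.97 ± 0.85 and -0.83 ± 0.83 (edgeR adjusted p = 0.475 and 0.582). At 7 to 36 counts per group, changes of this size are at the limit of what the depth can show.

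Zbp1, the sensor of Z-form nucleic acids, rose with LPS, SeV, cGAMP, CpGB and PAM. It was at 0, 13.9 and 49.9 CPM in Ctrl (5 counts), at 305, 342 and 461 with LPS, at 292, 301 and 367 with cGAMP, at 276, 287 and 310 with SeV and at 213, 217 and 230 with CpGB. The log2 fold changes were 4.21 ± 0.43, 3.96 ± 0.45, 3.86 ± 0.46 and 3.45 ± 0.48 in that order (edgeR adjusted p between 3.37e-17 and 4.87e-10). Their size rested on the few Ctrl counts: the ratio of summed counts with LPS was 19.4 (95% exact counting interval 8.20 to 60.5), and its log2 fold change was 5.94 without Ctrl replicate 2 and 3.55 without Ctrl replicate 3. PAM, at 52.5, 60.3 and 88.9 CPM, raised it by 1.76 ± 0.62 (edgeR adjusted p = 0.0316), a call lost by DESeq2 (adjusted p = 0.0949) and, by edgeR, without Ctrl replicate 1 (adjusted p = 0.101), Ctrl replicate 3 (0.342) or PAM replicate 3 (0.132). HMW (1.96 ± 0.59, edgeR adjusted p = 0.0718) and Zymosan (1.69 ± 0.63, 0.0745) gave differences of like size that did not pass and whose libraries overlapped Ctrl; without Ctrl replicate 2 both passed, at 3.65 and 3.38 (edgeR adjusted p = 0.0122 and 0.0129), and without Ctrl replicate 3 they were 1.27 and 0.99 (0.565 and 0.481).

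Eif2ak2, the PKR gene, stood at 27.7, 37.4 and 38.4 CPM in Ctrl, at 174, 199 and 239 with cGAMP, at 184, 191 and 202 with SeV, at 171, 172 and 197 with LPS and at 96.8, 175 and 255 with CpGB. The 4 groups lay above Ctrl at much the same height, although the CpGB libraries were spread widely. The log2 fold changes were 2.54 ± 0.40, 2.44 ± 0.41, 2.35 ± 0.40 and 2.28 ± 0.41 in that order (edgeR adjusted p between 3.88e-08 and 1.29e-06). With PAM it was at 13.1, 44.4 and 50.3 CPM, a log2 difference of 0.10 ± 0.55 (edgeR adjusted p = 0.939).

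The ligands were then set against each other, without using Ctrl. LPS, SeV, cGAMP and CpGB, the 4 ligands that raised at least 5 sensors alone, gave higher levels of Ddx58, Ifih1, Dhx58, Zbp1 and Eif2ak2 than PAM, HMW and Zymosan in each of the 12 contrasts per gene; this grouping of ligands was made after their values were seen. Of all 147 contrasts between single ligands for the 7 sensors, 75 passed an adjusted p of 0.05, against 18.8% of all gene contrasts. Between one of the 4 and one of the other 3, 68 of 84 sensor contrasts passed, against 23.8% of all gene contrasts. Within the 4, 7 of 42 passed, against 11.6%, a share near the background, and among PAM, HMW and Zymosan 0 of 21 passed, against 13.5%. Among the 4, Ifih1 separated them most often, in 4 of 6 contrasts. CpGB gave less Ifih1 than cGAMP, which exceeded it by 1.60 ± 0.16 on the log2 scale (edgeR adjusted p = 2.13e-17), less than SeV by 1.23 ± 0.16 (1.02e-10) and less than LPS by 1.15 ± 0.16 (3.20e-09). LPS minus cGAMP was -0.44 ± 0.15 (edgeR adjusted p = 0.0237), while LPS minus SeV (-0.08 ± 0.15, 0.831) and SeV minus cGAMP (-0.37 ± 0.15, 0.281) did not pass. For Ddx58, Dhx58, Mb21d1 and Eif2ak2 none of the 6 contrasts within the 4 passed, and for Zbp1 only LPS against CpGB did. Tmem173 was higher with SeV than with CpGB by 2.50 ± 0.60 (edgeR adjusted p = 6.69e-04) and higher with cGAMP than with CpGB by 2.20 ± 0.62 (0.00460). PAM minus SeV was -2.36 ± 0.58 for Tmem173 (edgeR adjusted p = 4.93e-04).

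The same transcripts were followed through all 64 groups. For Ddx58, Dhx58, Zbp1 and Eif2ak2 the ranges of the groups that held LPS, SeV or cGAMP overlapped. Group means of Ddx58 ran from 559 to 688 CPM in the 11 groups with LPS and neither SeV nor cGAMP, from 465 to 787 in the 16 groups with SeV and no cGAMP, and from 488 to 752 in the 22 groups with cGAMP. They were 369 to 563 in the 7 groups with CpGB and none of those 3, and 77.2 to 470 in the 7 groups with none of the 4. For Ifih1 the classes stood further apart. Its group means ran from 1395 to 2450 CPM with cGAMP, from 878 to 1645 with SeV and no cGAMP, from 1000 to 1305 with LPS and neither, from 320 to 681 with CpGB and none of those 3, and from 120 to 573 with none of the 4. Each group with cGAMP was thus above each group that lacked both cGAMP and SeV. Neighbours in the order were rarely distinct: the ranges of the 3 libraries overlapped for 62 of 63 neighbouring groups for Ddx58, 59 for Ifih1, 60 for Dhx58, 63 for Mb21d1, 63 for Tmem173, 61 for Zbp1 and 62 for Eif2ak2.

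**Figure D2:**
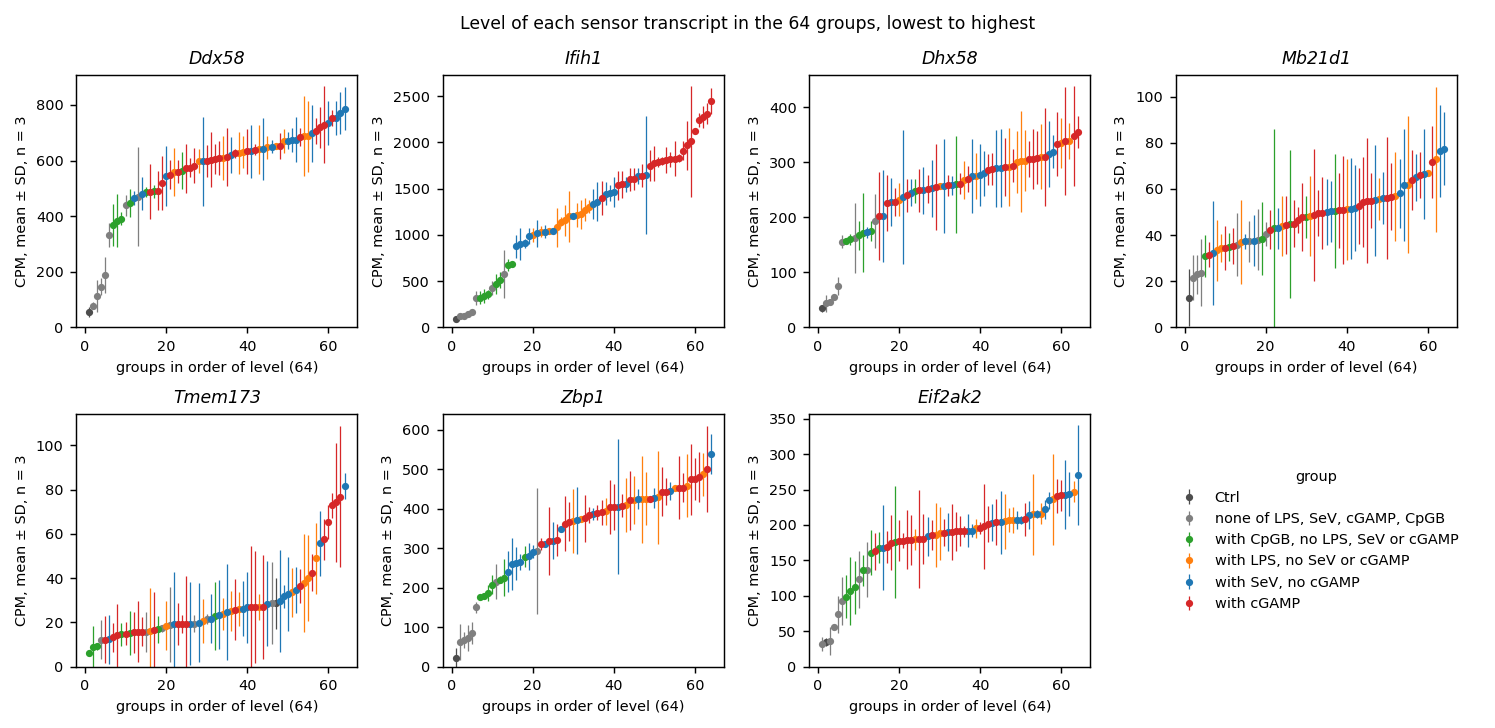
Mean CPM ± SD (n = 3) of each sensor transcript in the 64 groups, placed from lowest to highest for each gene and coloured by the ligands a group holds; vertical axes start at 0 and differ between genes. The red points (with cGAMP) lie in the upper part of the Ifih1 order at 1395 to 2450 CPM, whereas in the Ddx58 panel the same groups are mixed with those that hold SeV or LPS.

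The groups at the ends of each order were these. Ddx58 was highest with PAM+SeV (787 ± 77.8 CPM, SD, n = 3), LPS+SeV+CpGB (771 ± 77.3) and HMW+SeV+CpGB (753 ± 61.5). Ifih1 was highest with PAM+HMW+cGAMP (2450 ± 139), cGAMP+CpGB (2310 ± 115) and PAM+cGAMP (2279 ± 119). In both genes the lowest groups were Zymosan, PAM+Zymosan and Ctrl. Dhx58, the LGP2 gene, was highest with LPS+Zymosan+cGAMP (355 ± 28.6), PAM+cGAMP (348 ± 91.3) and LPS+HMW+Zymosan (339 ± 32.8), and lowest in the same 3 groups. Zbp1 was highest with LPS+Zymosan+SeV (538 ± 50.9), LPS+cGAMP (500 ± 109) and LPS+Zymosan (487 ± 54.4), each of which holds LPS, and lowest in PAM, Zymosan and Ctrl. Eif2ak2 was highest with PAM+SeV (270 ± 70.7), LPS+Zymosan+CpGB (247 ± 14.7) and Zymosan+SeV+CpGB (244 ± 31.3), and lowest in PAM, Ctrl and PAM+Zymosan (31.4 ± 10.1). Mb21d1 was highest with SeV+CpGB (77.5 ± 16.0), PAM+SeV (76.6 ± 20.0) and LPS+HMW (72.9 ± 31.5), and lowest in PAM+Zymosan, PAM and Ctrl. Tmem173 had another order. It was highest with SeV alone (81.8 ± 5.90), HMW+SeV+cGAMP (76.7 ± 31.9) and HMW+cGAMP (74.2 ± 26.9), lowest with Zymosan+CpGB, PAM+CpGB and PAM+Zymosan+CpGB, and Ctrl was the 18th highest of the 64 groups rather than the lowest.

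Against Ctrl, pairs gave 114 of 147 sensor tests called higher, where 13.7% of all gene tests were, and triplets gave 198 of 245, where 15.7% were. No sensor was called lower in any pair or triplet by edgeR or DESeq2, where 9.54% of all gene tests were, and 1 triplet test was lower at an unadjusted p under 0.05. The PAM+Zymosan pair was the exception: in it Zbp1 alone was called (66.3, 69.9 and 116 CPM, log2 1.98 ± 0.61, edgeR adjusted p = 0.0117), and in the other 20 pairs and all 35 triplets Ddx58, Ifih1, Dhx58, Zbp1 and Eif2ak2 were each called higher. Zbp1, whose calls share 5 Ctrl counts, was called in 20 pairs by DESeq2 and without the first or the third libraries of all groups. The pair lost was not tracked. Eif2ak2 was called in 18 pairs by DESeq2 and without the third libraries. With thinned counts Dhx58 and Eif2ak2 were each called in 17 pairs and 34 triplets. Mb21d1 was called in 13 of 21 pairs and 23 of 35 triplets, and Tmem173 in none. The Mb21d1 calls, which share 3 Ctrl counts, came to 5 pairs and 5 triplets by DESeq2, 7 and 8 with library size alone, 7 and 10 without the first libraries of all groups, 4 and 0 without the third, and 0 and 0 with thinned counts.

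The next question was what a ligand added to cells that already received another. Of 294 sensor tests of a pair against one of its single ligands, 91 were higher and 4 lower at an adjusted p of 0.05, where 6.80% and 3.82% of all gene tests were. Of 735 tests of a triplet against one of its pairs, 101 were higher and 14 lower, where 3.57% and 1.91% were. With counts thinned to equal totals the higher calls over both sets came to 113 and the lower calls to 2. These tests were split by what was already present. LPS, SeV, cGAMP or CpGB added to a background of PAM, HMW or Zymosan gave 115 of 168 sensor tests higher and 0 lower, against 11.6% and 6.31% of all gene tests. The same ligands added to a background that already held one of the 4 gave 45 of 420 higher and 9 lower, against 3.41% and 1.96%. Of these 45, 18 were Ifih1 and 12 were Zbp1, while Ddx58 had 6 of 60, Dhx58 5, Eif2ak2 4, and Mb21d1 and Tmem173 none. PAM, HMW or Zymosan added to a background with one of the 4 gave 6 of 378 higher and 9 lower, against 2.27% and 1.22%, so their share of higher calls was no larger than that of all genes.

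PAM, HMW and Zymosan raised the sensors in some combinations with each other. Added to each other they gave 26 of 63 sensor tests higher, against 6.20% of all gene tests. In PAM+HMW, Ddx58 stood at 402, 438 and 477 CPM, against 130 to 260 with HMW and 116 to 177 with PAM, so the pair lay above both without overlap. The pair exceeded HMW by 1.18 ± 0.19 on the log2 scale (edgeR adjusted p = 5.62e-08) and PAM by 1.59 ± 0.20 (7.24e-11). Ifih1 in PAM+HMW was at 351, 423 and 505 CPM, likewise above both, by 1.39 ± 0.21 over HMW (edgeR adjusted p = 8.97e-09) and 1.55 ± 0.22 over PAM (3.60e-09). In all, 5 sensors were above both single ligands in PAM+HMW (Ddx58, Ifih1, Dhx58, Zbp1 and Eif2ak2), where 1.99% of all genes were, and 4 in HMW+Zymosan (Ddx58, Ifih1, Dhx58 and Zbp1), where 1.53% were. The count for PAM+HMW was 3 without PAM+HMW replicate 2, and that for HMW+Zymosan was 2 without HMW replicate 3 or HMW+Zymosan replicate 3 and 0 without the third libraries of all groups. With thinned counts they were 2 and 1. In HMW+Zymosan, Ddx58 was at 299, 319 and 379 CPM, above HMW by 0.82 ± 0.20 (edgeR adjusted p = 0.00116) and above Zymosan by 1.53 ± 0.23 (3.17e-08). HMW was present in both of these pairs, and PAM+Zymosan, without it, had no sensor above both, with Ddx58 at 63.2, 79.9 and 88.4 CPM. When HMW was added to PAM+Zymosan, Ddx58 rose to 311, 435 and 664 CPM (log2 2.55 ± 0.24, edgeR adjusted p = 1.88e-19), Ifih1 to 346, 512 and 859 (2.30 ± 0.23, 3.48e-17) and Eif2ak2 to 93.4, 150 and 168 (2.15 ± 0.36, 4.30e-07). The libraries of PAM+HMW+Zymosan differed widely, with the first the highest for each of these 3 genes, but none overlapped PAM+Zymosan.

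Only 2 pairs with one of the 4 had a sensor above both single ligands. PAM+cGAMP had Ifih1 and Dhx58, where 3.60% of all genes were above both, and cGAMP+CpGB had Ifih1, where 1.99% were. Ifih1 was at 2188, 2235 and 2413 CPM with PAM+cGAMP and at 2190, 2321 and 2419 with cGAMP+CpGB, both above the cGAMP libraries without overlap, by 0.55 ± 0.14 (edgeR adjusted p = 0.00176) and 0.57 ± 0.14 (0.00124). In PAM+cGAMP, Dhx58 was at 273, 321 and 450 CPM, which overlapped the cGAMP libraries, and exceeded cGAMP by 0.83 ± 0.24 (edgeR adjusted p = 0.00726). The PAM+cGAMP count was 0 without a scaling factor, and that of cGAMP+CpGB was 0 without the third libraries. No sensor was above or below all 3 pairs of a triplet in any of the 35 triplets by edgeR or DESeq2, and 2 of 245 were above them at an unadjusted p under 0.05.

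The effect of each ligand was then averaged over the 22 backgrounds without it (Ctrl, 6 single ligands and 15 pairs). Of 49 such sensor tests, 34 were higher and 3 lower. Among all genes the shares that rose and fell were 21.2% and 18.7% with PAM, 29.6% and 29.3% with LPS, 7.94% and 2.10% with HMW, 21.3% and 20.4% with Zymosan, 20.6% and 16.7% with SeV, 28.2% and 29.7% with cGAMP and 19.0% and 17.7% with CpGB. For Ifih1 the mean log2 effect was 1.75 ± 0.04 (SE) for cGAMP, 1.13 ± 0.04 for SeV, 1.08 ± 0.04 for LPS, 0.47 ± 0.04 for CpGB and 0.33 ± 0.04 for HMW, each past an edgeR adjusted p of 0.05. For Zbp1 the order was LPS (1.18 ± 0.05), cGAMP (1.02 ± 0.05), SeV (0.73 ± 0.05) and CpGB (0.47 ± 0.05). For Ddx58 LPS and SeV gave 0.74 ± 0.04 each and cGAMP 0.66 ± 0.04. HMW raised 5 of 7 sensors, Ddx58, Ifih1, Dhx58, Zbp1 and Eif2ak2, by 0.23 to 0.34. These means rested on few backgrounds: among the 21 that held a ligand, HMW was called to raise each of the 5 in 2 to 4, with median effects of 0.00 to 0.18. With thinned counts the HMW effects on Dhx58 (edgeR adjusted p = 0.137) and Zbp1 (0.374) did not pass. Means of the stronger ligands also exceeded their medians over the 21. These medians were 1.05 for Ifih1 with cGAMP and 0.10 with CpGB, 0.18 for Zbp1 with SeV and with CpGB, and 0.30 and 0.27 for Ddx58 with LPS and SeV. Zymosan raised Dhx58 (0.19 ± 0.06) and Zbp1 (0.28 ± 0.05) but not Ddx58 (-0.10 ± 0.04, edgeR adjusted p = 0.0552, or -0.12 and 0.0154 with RLE scaling) or Ifih1 (-0.06 ± 0.04, 0.203). Among the 21 backgrounds with a ligand, Zymosan was called to raise Dhx58 in 1 and Zbp1 in 2. For Mb21d1, SeV (0.31 ± 0.10, edgeR adjusted p = 0.0105) and cGAMP (0.26 ± 0.10, 0.0207) passed and the other 5 ligands did not; the cGAMP effect was 0.13 (edgeR adjusted p = 0.252) without a scaling factor and 0.23 (adjusted p = 0.0632) by DESeq2, and the SeV effect 0.25 (edgeR adjusted p = 0.140) without the third libraries. Of the 22 backgrounds, 21 already held another ligand.

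**Figure D3:**
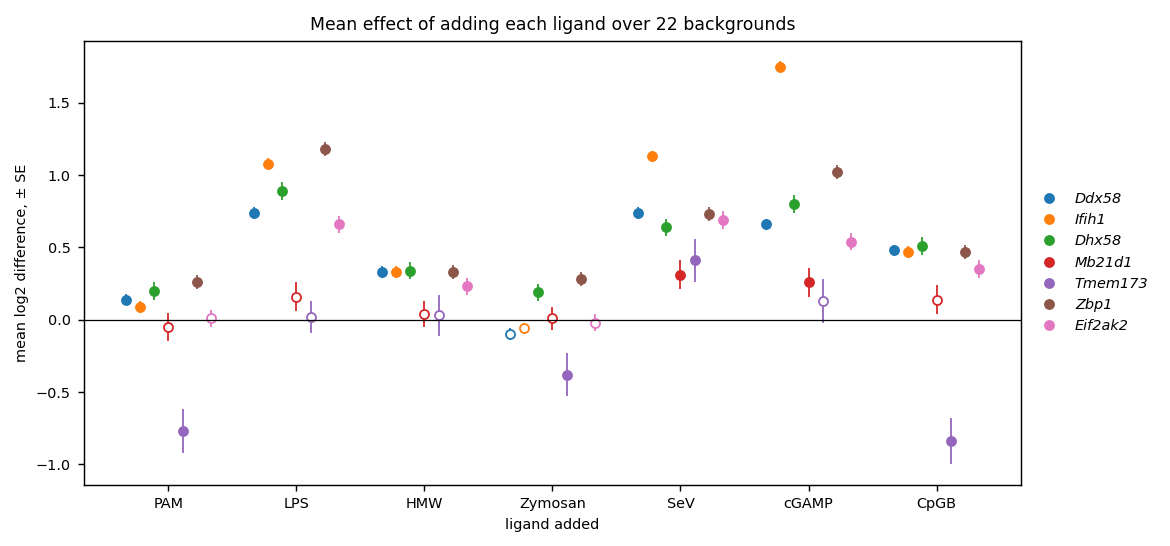
Mean log2 difference (± SE) that each ligand on the horizontal axis made to each sensor transcript over 22 backgrounds; filled points passed an edgeR adjusted p of 0.05, open points did not, and the line marks 0. Ifih1 with cGAMP stands highest at 1.75, and the points furthest below 0 are Tmem173 with PAM and CpGB, at -0.77 and -0.84.

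Tmem173 was the 1 sensor with a called fall in the mean effect of a ligand, and 9 of the 18 called falls on adding a ligand were its own. These 18 were no larger a share of the sensor tests than falls were among all genes (3.82% for additions to a single ligand, 1.91% to a pair). PAM changed it by -0.77 ± 0.15 over the 22 backgrounds (edgeR adjusted p = 8.04e-06), CpGB by -0.84 ± 0.16 (1.72e-06) and Zymosan by -0.38 ± 0.15 (0.0407), while SeV changed it by 0.41 ± 0.15 (0.0192). The Zymosan effect did not pass without the first or the second libraries of all groups (edgeR adjusted p = 0.372 and 0.240), nor the SeV effect without the second or the third (0.329 and 0.260). With counts thinned to equal totals PAM had no called mean effect on any sensor, so its effect on Tmem173 was lost there. In the 38 groups with PAM or CpGB its group means ran from 6.18 to 37.7 CPM, with 34 below the Ctrl mean of 28.6, and in the 25 groups without both from 13.2 to 81.8, with 12 below. In the HMW+cGAMP libraries it was at 51.7, 66.8 and 104 CPM, and with CpGB added at 9.39, 15.7 and 19.7, without overlap (log2 -2.26 ± 0.57, edgeR adjusted p = 0.00216). With PAM added to HMW+cGAMP it was at 14.4, 20.7 and 22.2 CPM (-1.91 ± 0.53, 0.00435) and with LPS added at 5.58, 16.0 and 18.0 (-2.34 ± 0.57, 0.00102). SeV alone left it at 75.0 to 86.0 CPM, and CpGB added to SeV put it at 8.19, 22.6 and 39.7 (-1.69 ± 0.56, edgeR adjusted p = 0.0359). All 9 called falls of Tmem173 among the added ligands were from backgrounds with SeV or cGAMP, 4 with CpGB, 3 with PAM and 2 with LPS. SeV, HMW+cGAMP and cGAMP were among its highest groups (means 81.8, 74.2 and 65.4 CPM), and a fall is easier to call from a high level. Falls from the same background also share its libraries. The 9 are thus not separate evidence that a fall depends on SeV or cGAMP, which was not tested. A library held 0 to 16 counts of Tmem173, with a median of 4, so single groups are imprecise.

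**Figure D4:**
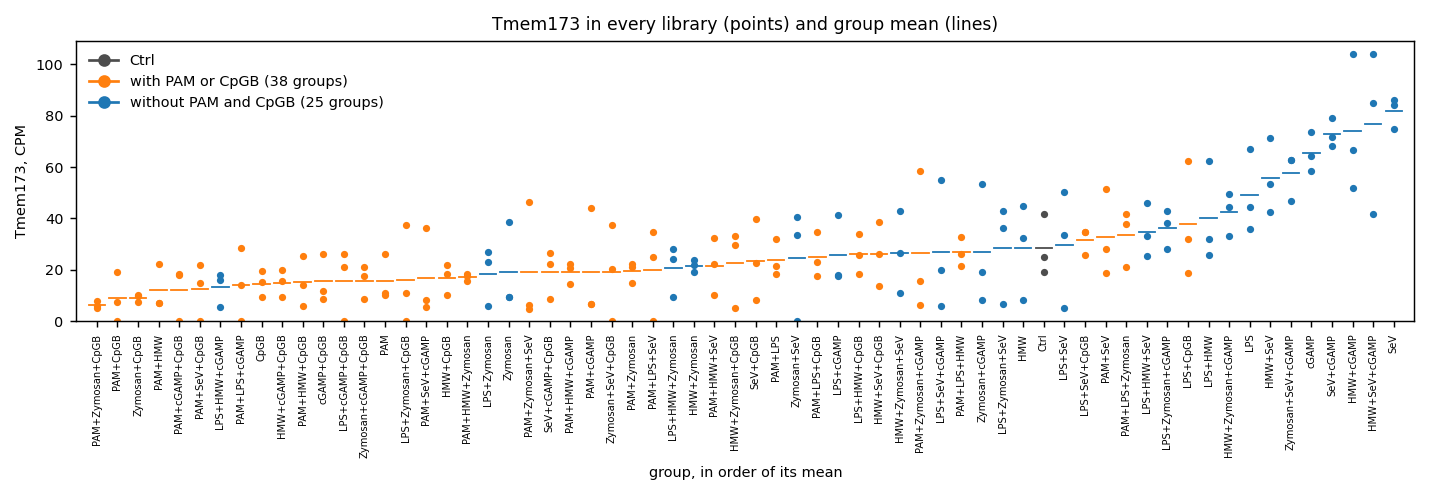
CPM of Tmem173 in each library (points) and the mean of each group (lines) for the 64 groups in order of that mean. Groups with PAM or CpGB (orange) fill most of the left side, with means of 6.18 to 37.7 CPM, and SeV alone is at the right end with 81.8.

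Beside these, called falls were found for Ifih1 and Ddx58. Called falls of the sensors numbered 18 in all. They were 4 of 294 additions to a single ligand and 14 of 735 to a pair, where 3.82% and 1.91% of all gene tests were lower. The share of falls was thus no larger than that of all genes. Counted anew in each setting, without tracking which tests they were, called falls were 11 without the second libraries of all groups and 2 without the third. They were 2 with counts thinned to equal totals and 10 with no filter on low counts. Zymosan added to 3 of the 5 pairs with SeV lowered Ifih1: from 1279, 1522 and 1591 CPM in PAM+SeV to 853, 926 and 940 (log2 -0.70 ± 0.15, edgeR adjusted p = 3.00e-04), from LPS+SeV by -0.65 ± 0.15 (9.53e-04) and from HMW+SeV by -0.56 ± 0.15 (0.00540). The libraries did not overlap in any of the 3. Added to SeV alone it gave -0.45 ± 0.16 (edgeR adjusted p = 0.0795), and added to SeV+cGAMP 0.16 ± 0.14 (0.799) and to SeV+CpGB -0.17 ± 0.17 (0.684). Ddx58 fell with Zymosan from HMW+SeV (-0.57 ± 0.16, edgeR adjusted p = 0.0110) and from PAM+SeV (-0.53 ± 0.16, 0.0199). LPS lowered Ifih1 when added to cGAMP+CpGB (-0.53 ± 0.14, edgeR adjusted p = 0.0133), PAM+cGAMP (-0.51 ± 0.14, 0.0275) and Zymosan+cGAMP (-0.47 ± 0.14, 0.0279), where it brought 2190 to 2419, 2188 to 2413 and 1788 to 1974 CPM down to 1461 to 1677, 1467 to 1701 and 1220 to 1583. PAM added to Zymosan+CpGB took Ifih1 from 656, 684 and 703 CPM to 309, 353 and 409 (-0.92 ± 0.18, edgeR adjusted p = 1.65e-04).

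Whether the log2 effects of 2 ligands added up was tested as the log2 change of the pair against Ctrl less the changes of its single ligands, where 0 means that they add up. Of 147 sensor tests, 39 were negative and 0 positive at an adjusted p of 0.05, where 3.50% and 1.08% of all gene tests were; DESeq2 and an unadjusted p also gave 0 positive. Of the 39, 31 were among the 42 tests of the 6 pairs of LPS, SeV, cGAMP and CpGB, in which Ddx58, Ifih1, Dhx58, Zbp1 and Eif2ak2 were each negative in 6 of 6 pairs, and 8 were among the other pairs. Over all genes 7.56% of tests were negative in the 6 pairs and 1.88% in the other pairs. The 4 were grouped after their large single effects were seen, and these effects enter the test with a minus sign. That choice favours negative values in their pairs. For SeV+cGAMP, Ifih1 was 4.13 above Ctrl on the log2 scale where the single effects, 3.68 and 4.05, sum to 7.73, an interaction of -3.60 ± 0.31 (edgeR adjusted p = 2.90e-22). For the same pair Zbp1 was 3.99 above Ctrl against a sum of 7.82 (-3.83 ± 0.53, 8.29e-10) and Ddx58 3.37 against 6.77 (-3.39 ± 0.35, 1.89e-16). The other strongest negative values per gene came from LPS+cGAMP and LPS+SeV for Ddx58 (-3.29 ± 0.35 and -3.27 ± 0.35) and Ifih1 (-3.43 ± 0.31 and -3.16 ± 0.32), from LPS+SeV and SeV+CpGB for Zbp1 (-3.82 ± 0.52 and -3.72 ± 0.55), from SeV+cGAMP, SeV+CpGB and LPS+SeV for Dhx58 (-2.40 ± 0.51, -2.40 ± 0.52 and -2.36 ± 0.50) and from SeV+cGAMP, LPS+cGAMP and cGAMP+CpGB for Eif2ak2 (-2.56 ± 0.48, -2.53 ± 0.48 and -2.41 ± 0.49). Mb21d1 had 1 called value, -2.79 ± 0.85 for LPS+SeV (edgeR adjusted p = 0.0160), and Tmem173 none. In PAM+HMW the value for Ddx58 was -0.10 ± 0.42 (edgeR adjusted p = 0.988) and for Ifih1 0.74 ± 0.44 (0.869), so a pair above both single ligands was not above their sum by this test.

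**Figure D5:**
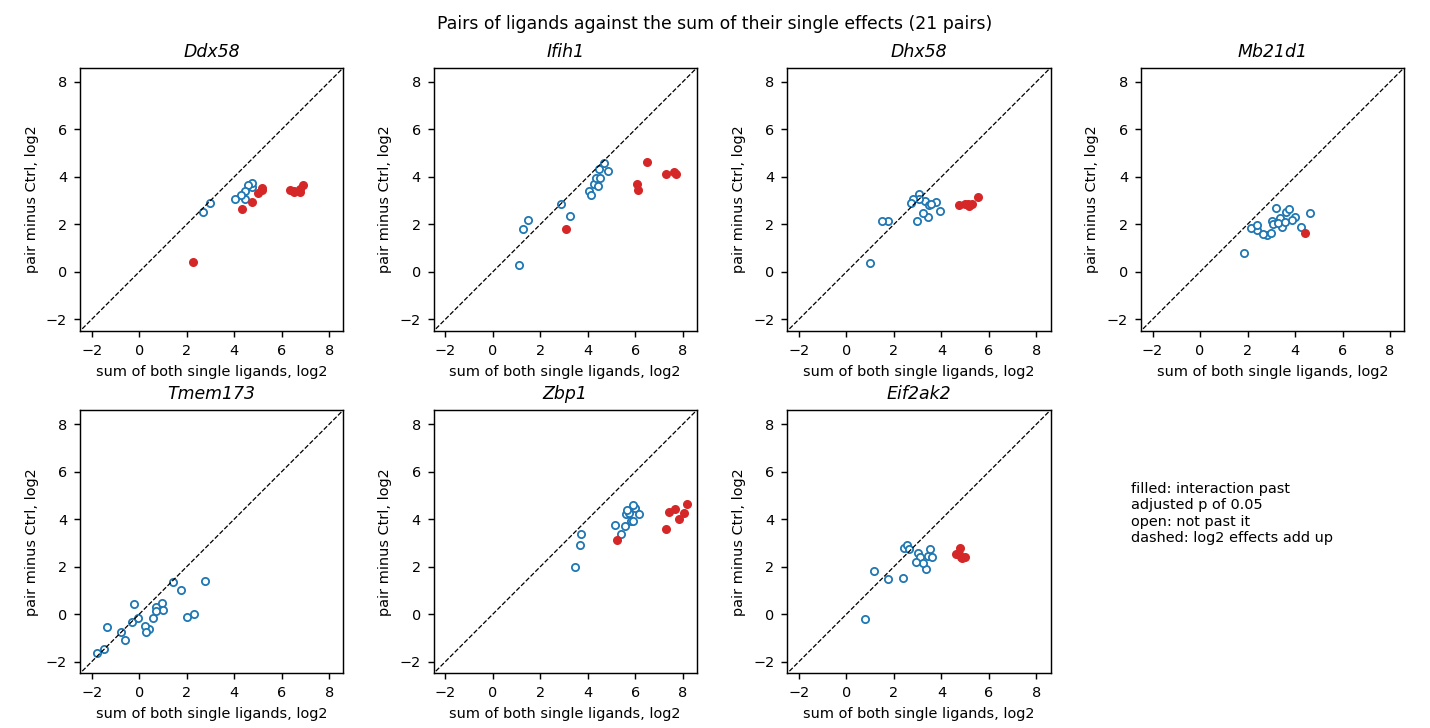
Log2 difference from Ctrl in each of the 21 pairs (vertical axis) against the sum of the log2 differences of its 2 single ligands (horizontal axis), one panel per sensor; both axes use the same Ctrl libraries. Filled points had an interaction past an edgeR adjusted p of 0.05, all of them below the dashed line of equality, and in the panels of Ddx58, Ifih1, Dhx58, Zbp1 and Eif2ak2 the pairs of LPS, SeV, cGAMP and CpGB lie at the right.

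The three-way interaction, in which the pairs and Ctrl are subtracted from the triplet and the single ligands are added back, was positive in 22 of 245 sensor tests and negative in 0 by edgeR, where 0.803% and 0.130% of all gene tests were. DESeq2 also gave 0 negative, and 1 was negative at an unadjusted p under 0.05. The positive count was 14 without the first libraries of all groups and 12 with thinned counts. Of the 22, 17 were among the 28 tests of the 4 triplets of LPS, SeV, cGAMP and CpGB, where 3.56% of all gene tests were positive, and 5 among the other triplets, where 0.447% were. In LPS+SeV+cGAMP the value was 3.09 ± 0.43 for Ddx58 (edgeR adjusted p = 1.60e-09), 2.89 ± 0.39 for Ifih1 (2.99e-10), 3.62 ± 0.62 for Zbp1 (2.08e-06), 2.31 ± 0.59 for Eif2ak2 (0.00455) and 2.16 ± 0.62 for Dhx58 (0.0152). Beside these, Ifih1 was 4.03 ± 0.25 above Ctrl in LPS+SeV+cGAMP, beside 4.05 ± 0.25 with cGAMP alone. Ddx58 had 9 called values, with the largest, 3.25 ± 0.43, in LPS+SeV+CpGB, and Mb21d1 and Tmem173 had none. Both kinds of interaction share singles, pairs and Ctrl, so they are not independent. The single effects by which the 4 were grouped enter the three-way value with a plus sign, which favours positive values in their triplets.

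Over the 64 group means of log2 CPM, Ddx58, Ifih1, Dhx58, Zbp1 and Eif2ak2 had Pearson correlations of 0.88 to 0.95 with each other. Mb21d1 had 0.63 to 0.72 with these 5, and Tmem173 0.09 to 0.26 with the other 6. These are descriptions over groups that share ligands and culture, and Mb21d1 and Tmem173 had medians of 8 and 4 counts per library. The genes most like Ddx58 were Ifi204 (0.966), Rtp4 (0.963) and Parp12 (0.963). Those most like Ifih1 were Cmpk2 (0.979), Ifit1 (0.978) and Rsad2 (0.974). For Dhx58 they were Parp12 (0.960), Tap1 (0.957) and Ifi204 (0.955), for Zbp1 Trim30a (0.973), Tapbp (0.969) and Parp14 (0.964), and for Eif2ak2 Ifi204 (0.961), Slfn5 (0.951) and Mx1 (0.950). Mb21d1 was most like Ifi203 (0.738), Parp14 (0.725) and Daxx (0.721), and Tmem173 most like Cyp27a1 (0.769), Ly86 (0.751) and Selplg (0.750). By Spearman correlation none of these 21 genes was among the 3 most like its sensor, so the order among many near-equal genes depends on the measure. Ifnb1, the interferon beta gene, had a Pearson correlation of 0.80 with Ifih1 and of 0.25 to 0.58 with the other 6.

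The sensors' pathway was described with 60 further genes listed by role, 42 of which were tested. The list was made with earlier results of these data known, so its shares called are not an independent test against all genes. Of the 42, 20 were called higher with LPS, 18 with SeV, 20 with cGAMP and 14 with CpGB, against 6 with PAM, 6 with HMW and 5 with Zymosan, and 1 was called lower with each of LPS, SeV, cGAMP and CpGB. Among all tested genes the shares called higher were 14.6%, 10.5%, 11.7%, 10.8%, 8.01%, 0.953% and 4.43% in that order, and the shares called lower with the first 4 were 9.60%, 5.13%, 5.91% and 6.27%. The median log2 fold change of the 42 was 1.02, 0.92, 1.18 and 0.77 with the first 4 and 0.44, 0.27 and 0.26 with the last 3, where the medians over all genes were -0.06, -0.08, -0.09, -0.03, 0.03, 0.03 and 0.02. Calls in either direction numbered 2 to 5 with PAM, 3 to 6 with HMW and 0 to 4 with Zymosan when libraries were left out, 0 with Zymosan by DESeq2, and 11 with LPS and 13 with cGAMP with thinned counts. Mavs, the adaptor gene of the RNA helicases, and Ripk3, the kinase gene downstream of Zbp1, did not pass the filter. Of the kinases below the adaptors, Tbk1 and Ikbke were called with no ligand; Ikbke was at 225 ± 40.8 CPM in Ctrl and 454 ± 8.69 with CpGB (log2 0.98 ± 0.21, edgeR adjusted p = 6.38e-05), under the fold threshold. Of the factors they act on, Irf3 was not called with any ligand, with 67.6 ± 23.3 CPM in Ctrl and 31.7 ± 5.73 with SeV (log2 -1.14 ± 0.54, edgeR adjusted p = 0.134), whereas Irf7 rose from 133 ± 60.1 CPM to 1593 ± 42.8 with LPS (3.58 ± 0.24, 6.36e-32) and to 334 ± 133 with HMW (1.30 ± 0.30, 0.00387, a call lost without Ctrl replicate 1, Ctrl replicate 3 or HMW replicate 2, at edgeR adjusted p = 0.0812 to 0.171). Traf3, which encodes an adaptor of the same route, was called lower with SeV, at 4 counts in all (-2.29 ± 0.84, edgeR adjusted p = 0.0382), a call lost without Ctrl replicate 2 or 3 or any 1 SeV library.

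Among partners and regulators, Trim25, a ubiquitin ligase gene linked to RIG-I, rose with LPS, SeV and cGAMP by 1.53 ± 0.25, 1.58 ± 0.25 and 1.56 ± 0.25 on the log2 scale (edgeR adjusted p between 5.27e-08 and 7.60e-08). Adar, which encodes an enzyme that edits double-stranded RNA, rose with LPS by 1.88 ± 0.35 (edgeR adjusted p = 2.85e-06) and with SeV, cGAMP and CpGB by 1.36, 1.35 and 1.18, calls lost without Ctrl replicate 3 (edgeR adjusted p = 0.0630, 0.0551 and 0.114). Ddx60 had no count in Ctrl and 41 counts with SeV, at least 7.82-fold higher against a floor of 3 counts over the Ctrl group. Of the genes that remove nucleic acids, Trex1, a DNA exonuclease gene, was called higher with each of the 7 ligands by edgeR, from 1.20 ± 0.36 with Zymosan (adjusted p = 0.0185) to 2.90 ± 0.29 with LPS (1.03e-17). Its call with Zymosan was lost by DESeq2 (adjusted p = 0.0619) and without Ctrl replicate 2 or Zymosan replicate 2, and that with HMW without Ctrl replicate 2 or HMW replicate 2. Samhd1, which encodes an enzyme that degrades deoxynucleotides, rose from 460 ± 91.9 CPM to 2173 ± 107 with cGAMP (2.21 ± 0.18, edgeR adjusted p = 2.19e-24), and with PAM it was lower by -0.75 ± 0.23 (0.00887), under the fold threshold. Dnase2a, a lysosomal DNase gene, was called lower with LPS (-2.22 ± 0.53, edgeR adjusted p = 2.85e-04), cGAMP (-1.56 ± 0.50, 0.0132) and CpGB (-1.53 ± 0.49, 0.0121). These 3 calls were lost without Ctrl replicate 3 (edgeR adjusted p = 0.163, 0.551 and 0.597), that with cGAMP also without cGAMP replicate 2 and that with CpGB without CpGB replicate 2 or 3.

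Of the other sensors listed, Ifit1, which binds foreign RNA ends, had the largest called rise, from 218 ± 29.1 CPM to 5445 ± 377 with cGAMP (log2 4.66 ± 0.20, edgeR adjusted p = 3.94e-56). Mlkl, the effector gene of necroptosis downstream of Zbp1, rose with cGAMP (2.19 ± 0.48, edgeR adjusted p = 1.36e-04), LPS (2.17 ± 0.48, 7.43e-05) and SeV (1.72 ± 0.52, 0.00871), the last of which was lost without Ctrl replicate 2 or 3 (edgeR adjusted p = 0.0635 and 0.140). Ifnb1 was called with 2 ligands at this time, SeV and cGAMP, with 112 and 83 counts against 3 in Ctrl, ratios of 21.4 and 16.0, with the lower bounds of their 95% exact counting intervals at 7.12 and 5.29. With LPS and CpGB Ifnb1 had 8 and 10 counts and was not called (edgeR adjusted p = 0.858 and 0.682). Stat2 and Irf9 encode factors below the interferon receptor. Stat2 was called with each of the 7 ligands by edgeR, from 1.18 ± 0.34 with PAM (adjusted p = 0.00554) to 3.06 ± 0.27 with LPS (1.09e-21). Its call with Zymosan was lost by DESeq2 (adjusted p = 0.0563) and without Ctrl replicate 3 or Zymosan replicate 2, and that with PAM without Ctrl replicate 3 or PAM replicate 3. Irf9 was called with PAM, LPS, SeV, cGAMP and CpGB, with the smallest rise of 1.11 ± 0.40 for cGAMP (edgeR adjusted p = 0.0295). Its calls with PAM, cGAMP and CpGB were lost by DESeq2 (adjusted p = 0.0824, 0.0902 and 0.0519).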

How the data were processed

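The authors deposited 1 table of UMI counts per gene and library, aligned with BWA 0.7.15 to mm10 per the submitters' processing notes; how reads were assigned to genes, and the annotation, are not given in the sources used here. Groups and replicate numbers came from the labels. Genes were filtered with filterByExpr by group, which left 4720 of 23481 genes and 95.7% of UMI counts. In R 4.3.3, edgeR 4.0.16 was fitted to all libraries with TMM scaling, 1 coefficient per group and 128 residual degrees of freedom, and tested by quasi-likelihood F-tests. P-values were adjusted by Benjamini-Hochberg over all genes tested within a contrast. Calls against Ctrl needed a log2 fold change of 1 or more in size besides an adjusted p under 0.05, and other contrasts the adjusted p alone. Log2 fold changes carry standard errors and CPM values SDs over the libraries. Correlations used log2 CPM with a prior count of 2. Intervals of count ratios are exact and cover counting error only. The procedure was tested on simulated data.

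The 7 sensors and the gene lists were chosen with earlier results of these data known. Pathway genes named are a fixed set (Mavs, Tbk1, Ikbke, Irf3, Irf7, Trim25, Adar, Trex1, Samhd1, Ripk3, Mlkl, Ifnb1, Stat2, Irf9 and 1 gene not reported here) plus, per role, the largest called rise and fall; likeness names the 3 highest correlations; groups named are the 3 highest and lowest per sensor and the 3 largest called interactions. Other groups and contrasts were singled out after their values were seen. Alternatives were RLE or no scaling, DESeq2 1.42.0, no filter, thinned counts, a replicate block and left-out libraries.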

Additional observations from a re-analysis of the deposited data

How the results depend on the processing

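Counts of sensors with LPS, SeV, cGAMP and CpGB moved little: 5 or 6 sensors were called with LPS, SeV and cGAMP and 4 or 5 with CpGB in each setting run, 268 to 312 pair and triplet tests against Ctrl, and 29 to 42 negative pair interactions. Counts moved most for PAM, HMW and Zymosan and for falls. Sensors called with PAM were 1 with RLE scaling, with library size alone, by DESeq2 and in a fit of PAM and Ctrl alone, and 0 to 2 when libraries were left out; with HMW 2 with no filter and 0 to 2 with libraries left out; with Zymosan 0 to 2. With library size alone, PAM had a mean effect on 2 sensors and Zymosan on 5, PAM+cGAMP had 0 above both single ligands, and 3 pathway genes were called with PAM (10 with no fold threshold). Pathway calls with Zymosan were 0 by DESeq2. Falls on adding a ligand were 10 with no filter and 2 to 13 with libraries left out.

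Thinned to equal totals, 0 sensors were called with PAM and with HMW, 113 additions rose and 2 fell, 12 three-way interactions were positive, PAM had a mean effect on 0 sensors and HMW on 3, PAM+HMW had 2 above both, PAM+cGAMP 0 and HMW+Zymosan 1, and pathway calls were 11 with LPS, 13 with cGAMP and 3 with Zymosan. Fewer counts entered these tests. Left-out libraries gave 14 to 17 positive three-way interactions, PAM mean effects on 3 to 5 sensors, sensors above both of 3 to 5 in PAM+HMW, 1 to 2 in PAM+cGAMP, 0 to 4 in HMW+Zymosan and 0 to 1 in cGAMP+CpGB, and pathway calls of 2 to 5 with PAM, 3 to 6 with HMW and 0 to 4 with Zymosan. The settings for sensors above both single ligands of a pair were chosen after seeing the data. By Spearman correlation 0 of the 21 most similar genes were named again. Apart from thinned counts, filters and left-out libraries, the cause of these moves was not tested.

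Relative to TMM, the median over all genes of the log2 change against Ctrl shifted by -0.16 with RLE or DESeq2 and by -0.36 with library size alone. Signs turned only for effects that had not passed, with 1 exception: Ifih1 on adding PAM (0.09, adjusted p = 0.0461 by edgeR) was -0.03 with library size alone. Eif2ak2 with PAM was -0.04 with RLE and DESeq2, -0.09 with library size alone and -0.17 to 0.47 with libraries left out, and on adding PAM -0.03, -0.03, -0.12 and -0.08 to 0.05. Tmem173 on adding LPS was -0.02, -0.01, -0.11 and -0.09 to 0.13, and Mb21d1 on adding Zymosan -0.01, -0.01, -0.04 and -0.06 to 0.13. With libraries left out, Tmem173 ran from -0.23 to 0.88 with HMW, -1.51 to 0.07 with Zymosan and -0.09 to 0.16 on adding HMW, Mb21d1 from -0.02 to 0.13 on adding HMW, and on adding Zymosan Ifih1 from -0.11 to 0.01 and Eif2ak2 from -0.10 to 0.14.

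Libraries with the same replicate number correlated at -0.29 to 0.18 (median 0.00815) in their deviations from group means. Of 6048 such pairs, 7 were over 0.1, and the main model held no term for the number. However, most libraries, 167, lay closest to their own number, and median library totals rose with the number. A weak effect shared by libraries of the same number is therefore not excluded, and its cause was not tested. With the replicate block, pair interactions called negative were 40 where they were 39 without it, additions called higher 194, and each other count moved by less than 1.5 times.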
